A study of Mus musculus with 2 samples.

Results

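The genes described here are 10 genes that PPARα controls or works with in liver: the acyl-CoA thioesterases Acot1, Acot2, Acot3 and Acot4, the pantetheinase Vnn1, the kinase Pdk4, the peroxisomal enzymes Acaa1b and Ehhadh, the hormone Fgf21 and the transcription factor Creb3l3. They were chosen by name, with earlier results of these data known, and each matched 1 of the 32285 gene rows of the tables. They were measured by spatial transcriptomics (10x Visium), which catches the RNA of a tissue slice on barcoded spots, each wide enough for several cells, and counts every molecule once by its unique molecular identifier (UMI). One liver section of 1 mouse fed a normal diet (NCD) and one of 1 mouse fed a high-fat diet (HFD, 60% of energy as fat) were measured, both from male C57BL/6J mice bought at 5 weeks of age, kept on their diet for 14 weeks and then given water by gavage for 8 weeks. With 1 section per diet, diet, animal and section cannot be told apart and no test was possible. Whether both sections lay on the same slide is not given in the sources used here. All intervals are 95% intervals that cover counting error only.

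PPARα is a nuclear receptor that fatty acids activate. It binds DNA as a pair with the retinoid X receptor, at a direct repeat of the letters AGGTCA, and in hepatocytes it turns on the genes for fatty acid uptake, mitochondrial and peroxisomal β-oxidation and ketone production, most of all in fasting. Acyl-CoA thioesterases split an acyl-CoA into the free fatty acid and CoA: Acot1 does so in the cytosol, Acot2 in mitochondria, and Acot3 and Acot4 in peroxisomes. A liver lobule runs from the portal vein and its bile duct (periportal) to the central vein (pericentral), and hepatocytes along this axis differ in the enzymes they make.

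Acot1 to Acot4 lie next to each other on the plus strand of chromosome 12 of GRCm38, within 72542 bases. In GENCODE M21 Acot2 (ENSMUSG00000021226) spans chr12:83987861-83993873, Acot1 (ENSMUSG00000072949) chr12:84009490-84018371, Acot4 (ENSMUSG00000052392) chr12:84038379-84048601 and Acot3 (ENSMUSG00000021228) chr12:84052144-84060402. Vnn1 (ENSMUSG00000037440) lies at chr10:23894688-23905343 on the plus strand. The other genes are on the minus strand, with Creb3l3 (ENSMUSG00000035041) at chr10:81084324-81098874, Pdk4 (ENSMUSG00000019577) at chr6:5483351-5496309, Acaa1b (ENSMUSG00000010651) at chr9:119148023-119157093, Ehhadh (ENSMUSG00000022853) at chr16:21761287-21787807 and Fgf21 (ENSMUSG00000030827) at chr7:45613886-45615490. All 10 are annotated as protein-coding.

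The promoters of 4 genes are shown: the neighbours Acot1 and Acot2, whose ratios had opposite signs, Acot4 of the same cluster, and Fgf21, which had the highest ratio of the 10. Each is the 250 bases before the RefSeq start (GRCm38.p6), 5′ to 3′ on the gene's strand, at chr12:84009252-84009501 (plus strand), chr12:83987611-83987860 (plus strand), chr12:84038129-84038378 (plus strand) and chr7:45615491-45615740 (minus strand). Capitals mark the letters ATTGG or CCAAT (the CCAAT box), AGGTCA or TGACCT (the nuclear receptor half-site) and TGATGCAAT or ATTGCATCA (the C/EBP-ATF element that stress factors such as Atf4 bind).
Acot1: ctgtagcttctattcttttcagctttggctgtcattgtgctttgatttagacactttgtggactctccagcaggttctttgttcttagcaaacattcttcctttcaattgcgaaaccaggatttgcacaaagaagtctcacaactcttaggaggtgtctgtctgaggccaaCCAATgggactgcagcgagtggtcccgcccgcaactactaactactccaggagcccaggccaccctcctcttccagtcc
Acot2: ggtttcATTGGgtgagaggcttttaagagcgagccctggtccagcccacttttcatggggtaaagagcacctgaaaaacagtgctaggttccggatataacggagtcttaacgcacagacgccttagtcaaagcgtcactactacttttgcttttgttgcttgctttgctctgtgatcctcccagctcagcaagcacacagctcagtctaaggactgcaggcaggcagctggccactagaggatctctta
Acot4: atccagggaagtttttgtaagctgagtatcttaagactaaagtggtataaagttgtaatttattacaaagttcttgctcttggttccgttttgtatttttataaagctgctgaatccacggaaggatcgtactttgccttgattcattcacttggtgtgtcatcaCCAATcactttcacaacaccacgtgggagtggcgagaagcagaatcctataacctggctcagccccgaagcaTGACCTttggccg
Fgf21: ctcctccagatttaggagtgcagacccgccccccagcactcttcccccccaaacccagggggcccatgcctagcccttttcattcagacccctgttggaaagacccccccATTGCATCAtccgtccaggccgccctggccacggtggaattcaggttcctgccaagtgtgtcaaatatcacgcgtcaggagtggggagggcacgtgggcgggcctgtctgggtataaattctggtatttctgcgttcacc
Of the 10 genes, 9 had a promoter in the RefSeq table, and Vnn1 is named only. The full repeat, AGGTCA followed by any 1 base and AGGTCA again, searched on both strands, was in 0 of the 9 and in 0.0335% of 32851 promoters of the same length. The half-site, which also counts letters inside a repeat, was found for 2 of the 9, Acot4 and Creb3l3, and in 14.02% of all promoters. The C/EBP-ATF element was found for Fgf21 of the 9 and in 0.167% of all, and the CCAAT box for 8 of the 9 and in 33.8% of all. The promoters of Acot1 and Acot2 had 0 words of 12 letters in common. These are matches of letters in a short window and not binding sites. The 9 genes have 11 promoters, and a gene was counted if any of its promoters matched. The share over all is of single promoters, so the units differ.

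Spots over tissue numbered 3692 in the NCD and 3594 in the HFD section. They held 29037988 and 72118803 UMIs, and the median spot had 4187.5 in NCD and 18549 in HFD. Of the spot barcodes over tissue, 3173 occurred in both sections, since every capture area carries the same 4992 barcodes. The labels name the tissue as liver but the cells as immune cells and hematopoietic stem cells. The 6 hepatocyte markers, such as Alb and Ttr, summed to 108107 counts per 1000000 UMIs (CPM) in the NCD and 120205 CPM in the HFD section. In contrast, Ptprc, which all white blood cells carry, was at 6.61 and 10.7 CPM, and 4 stem cell markers at 3.75 and 3.98 CPM, with 1 of them at 0 in the NCD section, so the text calls the samples liver. In the NCD capture area, 1300 spots off tissue held 19.1% of the UMIs (median 3383 per spot), against 2.93% in 1398 spots (median 1175.5) in the HFD capture area. The CPM of the 10 genes off tissue was 0.894 to 1.51 times that over tissue in NCD and 0.721 to 0.892 times in HFD, and how much of the signal over tissue is RNA that moved on the slide was not tested.

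Between the sections, Acot2, Vnn1 and Fgf21 were over 2-fold higher in HFD, Acot1 was 1.84-fold lower, and the peroxisomal pair went opposite ways, Acaa1b being higher and Ehhadh lower. Of the 10 genes, all of which had at least 100 UMIs over both sections, 3 were at least 2-fold higher in HFD and 0 at least 2-fold lower. Over all 11913 genes with that minimum, 10.8% were at least 2-fold higher and 2.06% at least 2-fold lower. The median log2 ratio of HFD to NCD was 0.47 for the 10 genes and 0.24 for all genes. In these sections, fewer cells of a type and less RNA per cell cannot be told apart.

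**Figure D1:**
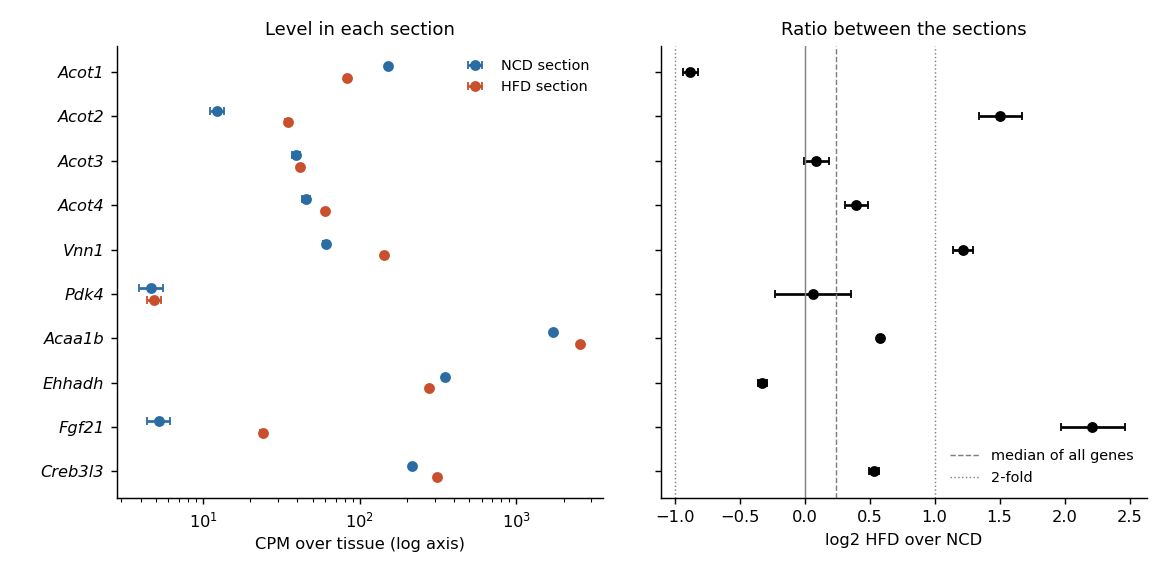
Left, level of each gene over tissue in CPM on a log axis, in the NCD section (blue) and the HFD section (orange). Right, log2 ratio of HFD to NCD. Bars are 95% intervals for counting error and n is 1 section per diet. Acot2, Vnn1 and Fgf21 lie to the right of the 2-fold line, Acot1 lies at -0.88, and the interval of Pdk4 spans 0.

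Among the thioesterases, Acot1, the cytosolic enzyme, was at 151 CPM (147 to 156) in NCD and 82.4 CPM (80.3 to 84.5) in HFD, a log2 ratio of -0.88 (-0.94 to -0.82). It passed 2-fold lower in 2 alternatives (-1.03 with hepatocyte marker UMIs as the denominator and -1.03 with the off-tissue profile subtracted). The difference was smaller in others. It was -0.72 and -0.71 with spots drawn down to 1000 and 3000 UMIs, -0.72 in spots with 5000 to 20000 UMIs and -0.78 as mean CPM per spot. Acot2, the mitochondrial enzyme, was at 12.2 CPM (10.99 to 13.6) in NCD and 34.7 CPM (33.3 to 36.1) in HFD, a 2.84-fold higher level with a log2 ratio of 1.505 (1.34 to 1.67). The intervals of the 2 sections did not overlap for either gene, and the directions were opposite. Acot3, a peroxisomal enzyme, was at 39.3 and 41.8 CPM, with a log2 ratio of 0.09 (-0.01 to 0.19) that spans 0. It was -0.06 when hepatocyte marker UMIs were the denominator and 0.86 with the off-tissue profile subtracted. Acot4, a peroxisomal enzyme that also takes succinyl-CoA, was at 45.3 CPM (42.9 to 47.8) in NCD and 59.7 CPM (57.9 to 61.5) in HFD, with a log2 ratio of 0.40 (0.31 to 0.49).

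Acot1 and Acot2 share part of their transcript sequence, so some reads could come from either gene. Of the 50-base words in the longest coding transcript, 23.7% for Acot1 and 24.5% for Acot2 occur in the other gene. In the last 300 bases, nearest to where this assay primes, 0% of the words of Acot1 and 0.797% of those of Acot2 occur in any other gene. Summed, the pair was at 164 CPM in NCD and 117 CPM in HFD, a log2 ratio of -0.48 (-0.54 to -0.43). Acot2 made up 7.47% of the UMIs of the pair (6.74% to 8.25%) in NCD and 29.6% (28.7% to 30.6%) in HFD. The sum was therefore lower in HFD although Acot2 was higher, and how reads shared by both genes were counted is not given in the sources used here.

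Vnn1, a pantetheinase on the cell surface that releases pantothenic acid and cysteamine, was at 61.1 CPM (58.3 to 64.0) in NCD and 142 CPM (139 to 145) in HFD, 2.33-fold higher with a log2 ratio of 1.22 (1.14 to 1.29). Pdk4, the kinase that shuts off pyruvate dehydrogenase and so spares glucose, had 135 UMIs in NCD and 350 in HFD, which is 4.65 CPM (3.90 to 5.50) and 4.85 CPM (4.36 to 5.39). A difference in Pdk4 was not detectable at this depth, with a log2 ratio of 0.06 (-0.23 to 0.36) that turned negative in 3 of the alternatives.

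Acaa1b, the thiolase of the last step of peroxisomal β-oxidation, was at 1707 CPM (1692 to 1722) in NCD and 2554 CPM (2542 to 2565) in HFD, 1.496-fold higher. Ehhadh, the bifunctional enzyme of the steps just before it, was at 347 CPM (340 to 354) in NCD and 277 CPM (273 to 281) in HFD, 1.25-fold lower. The enzymes of one pathway thus had log2 ratios of 0.58 (0.57 to 0.60) and -0.32 (-0.36 to -0.29), neither of them past 2-fold. Acaa1b shares 35.5% of its 50-base words with the related gene Acaa1a, and 20.7% of those in the last 300 bases are found in another gene. Acaa1a itself was at 344 CPM in NCD and 303 CPM in HFD, and the log2 ratio of the summed pair was 0.48 (0.47 to 0.49).

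Fgf21, a hormone that the liver releases in fasting and under nutrient stress, had the fewest UMIs after Pdk4. It had 151 UMIs in NCD, or 5.20 CPM (4.404 to 6.10), and 1736 in HFD, or 24.1 CPM (23.0 to 25.2). The HFD level was 4.63-fold higher, with a log2 ratio of 2.21 (1.97 to 2.46), the highest of the 10 genes. In the NCD capture area Fgf21 was at 7.86 CPM off tissue (54 UMIs), above its level over tissue. In the HFD capture area it was at 18.4 CPM off tissue, below its level over tissue. Creb3l3, a transcription factor that is released from the membrane of the endoplasmic reticulum and acts with PPARα on Fgf21, was at 215 CPM (209 to 220) in NCD and 311 CPM (307 to 315) in HFD. Its log2 ratio was 0.53 (0.49 to 0.58), 1.45-fold higher.

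To place the genes along the lobule, each spot with at least 1000 UMIs was scored by 8 pericentral landmark genes such as Cyp2e1 and Glul over 7 periportal ones such as Cyp2f2 and Hal, none of them among the 10. Spots were ranked within their section and cut into 3 classes of equal size, pericentral, middle and periportal, with 950, 951 and 951 spots in NCD and 1196, 1197 and 1197 in HFD. The 7 pericentral check genes not used in the score, such as Cyp7a1 and Lgr5, had a log2 ratio of pericentral to periportal CPM of 1.56 in NCD and 1.55 in HFD, and 3 periportal ones, such as Cps1 and Pck1, of -0.63 and -0.67. Between the sections, the summed pericentral landmarks had a log2 ratio of HFD to NCD of -0.79 (1 of 8 higher). The periportal ones had -0.24 (3 of 7 higher). Since ranks are within a section, whether a class lies at the same place in both lobules was not tested. Depth moved with position: the median UMIs per spot were 7698.5, 7919 and 4609 in the NCD classes and 17172, 14566 and 24625 in the HFD classes. Its part in the results was not tested beyond the settings with spots drawn down to equal depth.

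In both sections, Acot1, Vnn1 and Acaa1b were highest at the central vein, and Ehhadh and Creb3l3 were nearly flat. Fgf21 was higher at the portal side, in NCD from fewer than 100 UMIs at a level like that off tissue, and in HFD not once spots were drawn down to 1000 UMIs. Of the 8 genes with at least 100 UMIs in the outer classes of the NCD section, 3 were at least 1.5-fold higher pericentrally and 0 periportally. Over all 7691 genes with that minimum, 7.28% were pericentral and 2.74% periportal by the same fold. In the HFD section 6 of 10 genes were pericentral and 0 periportal, against 4.73% and 4.16% of 10799 genes. With spots drawn down to 1000 UMIs 4 of the 10 were pericentral, since Acot2 (log2 0.36) and Acaa1b (0.48) came under 1.5-fold. The median log2 ratio of pericentral to periportal was 0.51 over the 8 genes in NCD and 0.70 over the 10 in HFD, beside 0.13 and 0.08 over all genes.

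**Figure D2:**
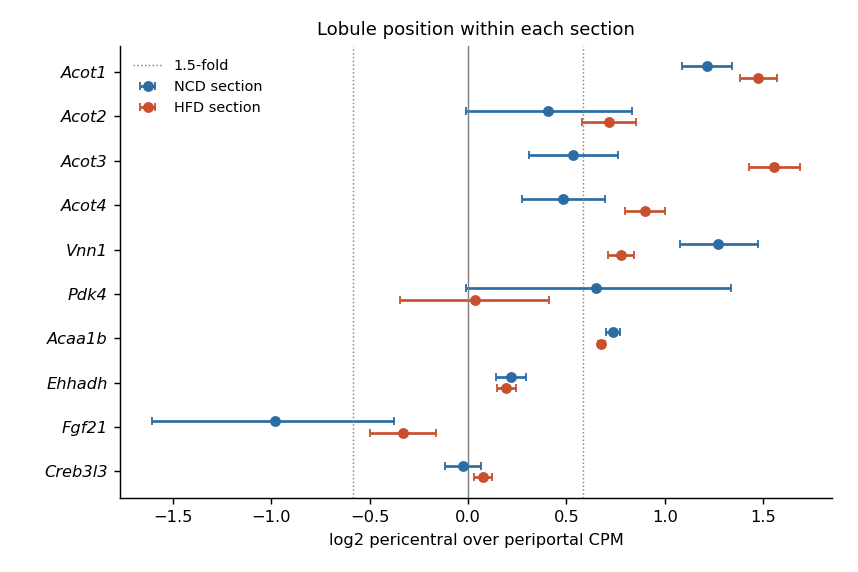
Log2 ratio of pericentral to periportal CPM of each gene in the NCD section (blue) and the HFD section (orange), with 95% intervals for counting error. Dotted lines mark 1.5-fold. Acot1, Acot3 and Acot4 lie farther right in the HFD section and Vnn1 and, by less, Acaa1b farther left, with intervals that do not overlap, while Fgf21 lies left of 0 in both.

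Acot1 had pericentral, middle and periportal levels of 204, 146 and 88.2 CPM in NCD and 130, 84.3 and 46.9 CPM in HFD. Its log2 ratio of pericentral to periportal was 1.21 (1.08 to 1.34) in NCD and 1.48 (1.38 to 1.57) in HFD. Over 10 bins of the same score it ran from 77.1 CPM in the most periportal bin to 227 CPM in the most pericentral one in NCD, and from 35.6 to 156 CPM in HFD. The slope was thus steep in both sections, and each HFD class was lower than the NCD class of the same name.

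Acot3 differed most between the sections in its slope. In NCD it was at 46.6, 36.2 and 32.2 CPM from the pericentral to the periportal class, a log2 ratio of 0.53 (0.31 to 0.76), and in HFD at 68.8, 40.5 and 23.4 CPM, a ratio of 1.56 (1.43 to 1.69). The HFD section was therefore higher than NCD in pericentral spots and lower in periportal spots. Off tissue, Acot3 was at 46.9 CPM in NCD, no lower than in any NCD class, and at 31.7 CPM in HFD. Over the 10 bins, Acot3 had its lowest value, 28.0 CPM, in the second bin from the portal side in NCD and its highest, 58.8 CPM, in the most pericentral bin. In HFD the lowest, 18.4 CPM, and the highest, 84.8 CPM, were in the outermost bins. Acot4 had the same order, with 52.5, 42.9 and 37.6 CPM in NCD and 81.9, 59.7 and 43.9 CPM in HFD, and ratios of 0.48 (0.27 to 0.70) and 0.90 (0.80 to 1.00). Its level off tissue was 47.6 CPM in NCD, above the middle and periportal classes, and 47.3 CPM in HFD, above the periportal class. Acot2 had 13.2, 12.1 and 9.96 CPM in NCD, where neighbouring classes had overlapping intervals, and 43.2, 38.3 and 26.2 CPM in HFD, with ratios of 0.41 (-0.01 to 0.84) and 0.72 (0.58 to 0.86).

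Vnn1 showed the opposite shift. It was at 89.1, 51.6 and 36.9 CPM in NCD and at 181, 155 and 106 CPM in HFD, and its log2 ratio of pericentral to periportal was 1.27 (1.08 to 1.47) in NCD and 0.78 (0.71 to 0.85) in HFD. In bins, Vnn1 ran from 30.7 to 112 CPM in NCD and from 84.7 to 189 CPM in HFD. The lowest HFD class of Vnn1 was above the highest NCD class. Off tissue, Vnn1 was at 64.0 CPM in NCD, above the middle and periportal NCD classes. In HFD it was at 102 CPM off tissue, close to the periportal class. The part of this signal in the slopes of Vnn1 was not tested. Acaa1b was at 2040, 1706 and 1222 CPM in NCD and 3165, 2762 and 1979 CPM in HFD, with ratios of 0.74 (0.70 to 0.77) and 0.68 (0.66 to 0.69). Ehhadh differed little along the axis, with ratios of 0.22 (0.14 to 0.30) and 0.19 (0.15 to 0.24), and its highest NCD bin was the 5th of 10 from the portal side.

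Fgf21 ran the other way. In NCD it had 40 UMIs in pericentral spots (3.88 CPM) and 7.68 CPM in periportal ones, a log2 ratio of -0.98 (-1.60 to -0.37), with fewer than 100 UMIs in both together, so it was not counted there. In HFD it was at 21.4, 22.8 and 26.8 CPM from the pericentral to the periportal class, a ratio of -0.33 (-0.50 to -0.16), which was 0.0012 with every spot drawn down to 1000 UMIs. Creb3l3 was at 216, 210 and 219 CPM in NCD and 317, 319 and 301 CPM in HFD, with ratios of -0.03 (-0.12 to 0.07) and 0.08 (0.03 to 0.12). Pdk4 was at 6.12, 3.85 and 3.90 CPM in NCD and 4.76, 5.25 and 4.65 CPM in HFD, and all 6 classes had intervals that overlapped the next in order. Its ratio was 0.65 (-0.01 to 1.34) in NCD, from fewer than 100 UMIs, and 0.03 (-0.35 to 0.41) in HFD, so no slope was detectable at this depth.

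**Figure D3:**
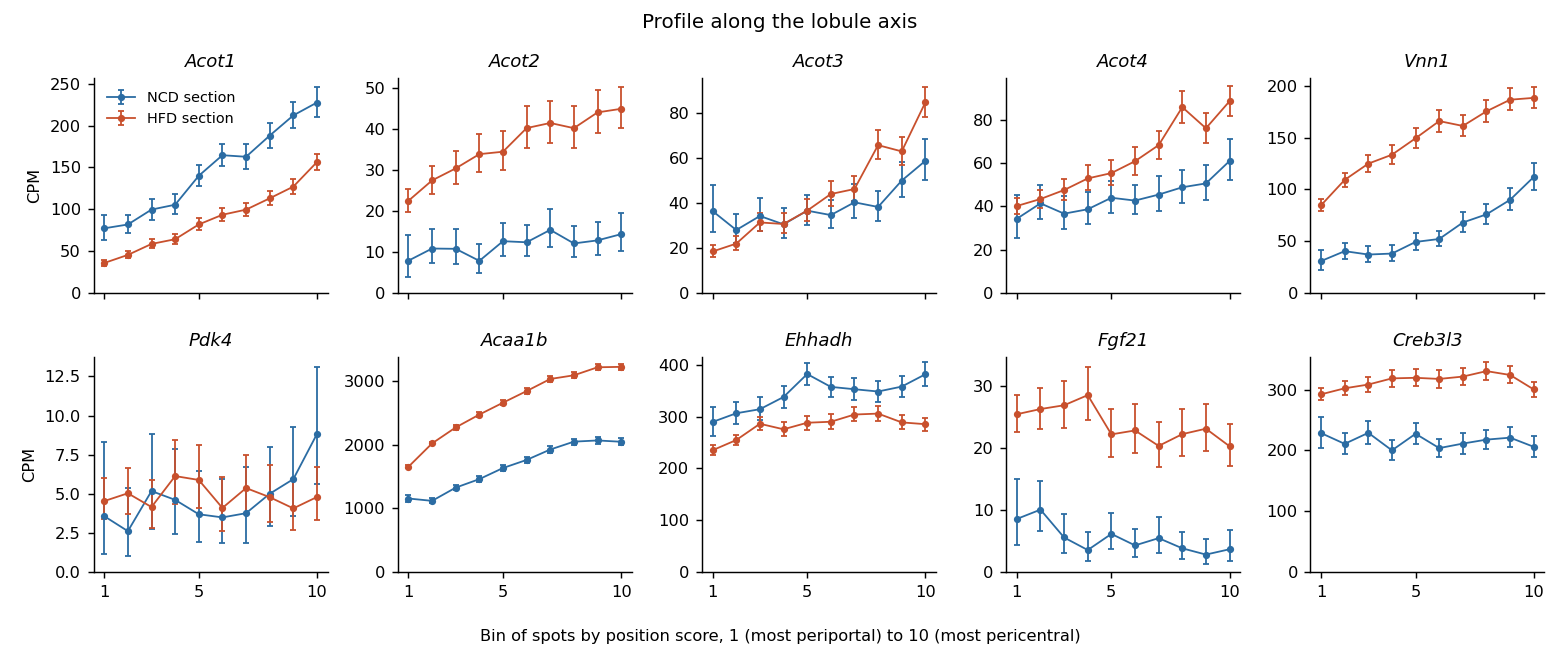
CPM of each gene (each vertical axis has its own scale and starts at 0) over 10 bins of equal spot number, from the most periportal bin (1) to the most pericentral bin (10), in the NCD section (blue) and the HFD section (orange), with 95% intervals for counting error. Acot1, Vnn1 and Acaa1b climb toward the central vein in both sections, and the Acot3 lines cross. Fgf21 is lower in bin 10 than in bin 1 in both sections, with overlapping intervals. Its highest value is in bin 2 in NCD and in bin 4 in HFD.

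Compared class by class, the ratio of HFD to NCD was nearly even along the lobule for Acaa1b (log2 0.63 pericentral, 0.69 middle, 0.69 periportal), Ehhadh (-0.29, -0.32, -0.27) and Creb3l3 (0.56, 0.60, 0.46). It was uneven for Acot3, at 0.56 (0.41 to 0.71) in pericentral, 0.17 (-0.01 to 0.34) in middle and -0.46 (-0.67 to -0.24) in periportal spots. Acot4 had the same order with 0.64, 0.48 and 0.22. Vnn1 had 1.02 (0.92 to 1.13) in pericentral against 1.59 (1.46 to 1.72) in middle and 1.52 (1.34 to 1.70) in periportal spots. Fgf21 was 5.50-fold higher in HFD in pericentral spots and 3.50-fold higher in periportal ones, with overlapping intervals of 1.99 to 2.96 and 1.42 to 2.22 on the log2 scale. These folds rest on 40 and 57 NCD UMIs, or 3.88 and 7.68 CPM, no higher than the 7.86 CPM off tissue in NCD. The off-tissue signal was not subtracted in the ratios of any gene by position, and its part in them was not tested. Acot1 was lower and Acot2 higher in HFD at all 3 positions, with log2 ratios of -0.65, -0.79 and -0.91 for Acot1 and 1.71, 1.66 and 1.40 for Acot2.

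**Figure D4:**
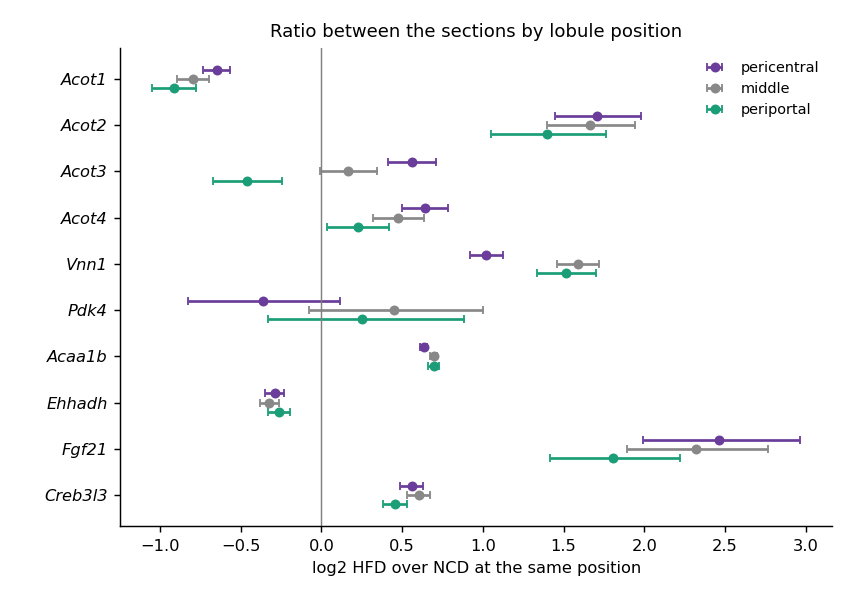
Log2 ratio of HFD to NCD of each gene within pericentral (purple), middle (grey) and periportal spots (green), with 95% intervals for counting error. Acot3 lies right of 0 in pericentral spots (0.56) and left of 0 in periportal spots (-0.46), and the 3 ratios of Acaa1b, Ehhadh and Creb3l3 lie close together.

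A share of spots with a UMI depends on depth, so spots were drawn down to 1000 UMIs, which left out 840 NCD and 4 HFD spots. Vnn1 was then seen in 5.12% (4.34% to 5.99%) of 2852 NCD spots and 13.8% (12.6% to 14.9%) of 3590 HFD spots, against 6.06% and 9.37% of the spots off tissue. The shares before drawing down were 28.8% and 86.3%. Acot1 was seen in 13.9% and 8.91% of the spots (12.6% and 6.66% off tissue), and 45.7% and 70.9% before drawing down, so its order turned once depth was equal. Fgf21 was seen in 0.386% of NCD spots, under the 1.31% off tissue, and in 2.31% of HFD spots against 1.48% off tissue. Ehhadh was seen in 30.0% of NCD and 22.5% of HFD spots (22.3% and 15.9% off tissue), and Creb3l3 in 20.2% and 25.7% (22.5% and 16.4%). Both thus had the order of their CPM, with the NCD share of Creb3l3 under that off tissue, as were those of Vnn1 and Acaa1b. Acaa1b was seen in 80.1% and 91.9% of the spots (85.8% and 82.4% off tissue). Acot2 was seen in 1.09% and 3.20% (0.983% and 3.45%), Acot3 in 4.07% and 4.65% (3.93% and 2.71%), Acot4 in 4.91% and 5.85% (4.67% and 4.07%) and Pdk4 in 0.456% and 0.529% (0.328% and 0.370%). A share at or under that off tissue, such as that of Acot2 in HFD, does not tell signal of these spots from RNA free on the slide. The same limit holds for the levels of these genes in that section, since the CPM off tissue was close to that over it. At 3000 UMIs, the variance of the UMIs per spot over their mean was 1.38 for Acaa1b in NCD and 1.42 in HFD, and between 0.988 and 1.11 for each of the other 9 genes in both sections. A value of 1 is what equal spots would give by counting alone. With few UMIs per spot the value stays near 1 for uneven genes too. Acot1 in HFD had 1.11, although its bins ran from 35.6 to 156 CPM. A value near 1 thus does not show that a gene was even over the spots.

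The genes most like each gene along the lobule were sought for 9 of the 10, leaving out Pdk4 with fewer than 1000 UMIs, among 2555 genes with at least 1000 UMIs in each section, leaving out the landmarks. Likeness was Pearson's r of log2 CPM over 20 points, the 10 bins of each section centred within the section, and the points share libraries and the score, so r is a description. Acot1 was most like Cyp4a10, a fatty acid ω-hydroxylase and PPARα target (r = 0.991), then Hsd17b4 (r = 0.988), a peroxisomal β-oxidation enzyme, and Gstm1 (r = 0.986). Acaa1b was most like Mgst1 (r = 0.995), followed by Cyp3a11 (r = 0.992). Acot3 was most like Cd81 (r = 0.962), Decr2 (r = 0.958) and Ephx2 (r = 0.9499), and Vnn1 most like Tmem243 (r = 0.982), Ugt2b34 (r = 0.978) and Apoe (r = 0.975). Acot4 was most like Rbp4 (r = 0.959), Acot2 most like Gpat4 (r = 0.902), an enzyme of glycerolipid synthesis, and Ehhadh most like Cldn2 (r = 0.921). Pcx, pyruvate carboxylase, was among the 3 most like genes of both Acot4 (r = 0.941) and Acot2 (r = 0.897). For Fgf21 the highest was S100a1 (r = 0.844), and for Creb3l3 no gene passed Abhd17a (r = 0.678). Among the 10 themselves, Acot1 and Acaa1b had r = 0.981 over the 10 NCD bins and 0.975 over the 10 HFD bins, while Acot1 and Fgf21 had r = -0.782 and -0.758.

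Other PPARα targets were found in both directions. Of a list of 40, 38 had at least 100 UMIs, and of these 3 were at least 2-fold higher in HFD, 3 at least 2-fold lower and 32 neither, beside 10.8% higher and 2.06% lower over all genes, with a median log2 ratio of 0.12 beside 0.24 for all genes. With hepatocyte marker UMIs as the denominator 1 of 38 was at least 2-fold higher and the median was -0.030. The higher ones were Cd36, a fatty acid transporter, from 63.6 to 222 CPM (log2 1.80), Pex11a, which drives peroxisome division, from 54.0 to 113 CPM (1.06), and Aldh3a2, a fatty aldehyde dehydrogenase, from 269 to 557 CPM (1.05). The lower ones were the ω-hydroxylases Cyp4a14, from 2128 to 657 CPM (-1.70), and Cyp4a10, from 1305 to 467 CPM (-1.48), and Hacl1, the lyase of peroxisomal α-oxidation, from 384 to 135 CPM (-1.504). Fabp1, the fatty acid carrier and a gene with many UMIs, differed less, with a log2 ratio of 0.24. Along the lobule, 7 of 38 were at least 1.5-fold pericentral in each section, and 0 in NCD and 1 in HFD (Cyp4a31) periportal. Over all genes, 7.28% in NCD and 4.73% in HFD were pericentral, and 2.74% and 4.16% periportal. The highest pericentral ratio of these in NCD was that of Aldh3a2, with log2 2.15 in NCD and 1.28 in HFD.

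**Figure D5:**
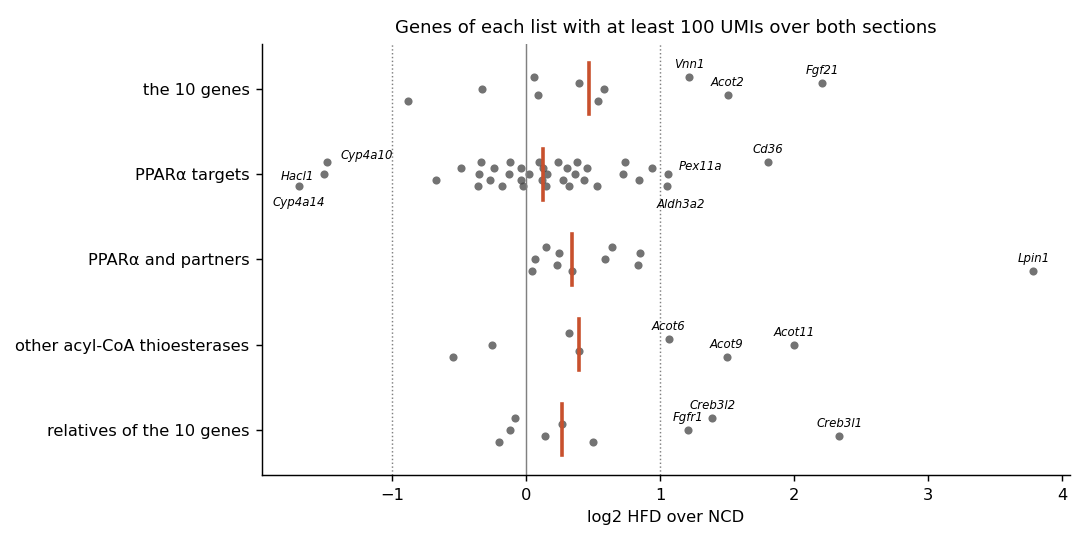
Log2 ratio of HFD to NCD of every gene with at least 100 UMIs over both sections, by list, with 1 point a gene, an orange bar for the median of the list, dotted lines at 2-fold, and names for genes past it. Points are shifted vertically only to separate them. Cyp4a14, Cyp4a10 and Hacl1 lie at the left, Lpin1 lies at 3.79, and the 10 genes have a median of 0.47.

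The receptor itself was at 13.5 CPM (12.2 to 14.9) in NCD and 15.0 CPM (14.1 to 15.9) in HFD, a log2 ratio for Ppara of 0.15 (-0.02 to 0.32). Within the lobule, Ppara had a ratio of pericentral to periportal of 0.24 (-0.14 to 0.63) in NCD and 1.09 (0.87 to 1.31) in HFD, where it was at 20.9 CPM in pericentral and 9.80 CPM in periportal spots. Of the 11 genes for PPARs and their partners, 1 was at least 2-fold higher in HFD and 0 lower, beside 10.8% and 2.06% of all genes. That gene was Lpin1, a phosphatidate phosphatase that also acts as a coactivator with Ppargc1a and PPARα, at 12.1 CPM (10.8 to 13.4) in NCD and 166 CPM (163 to 169) in HFD, 13.8-fold higher. Rxra, the partner in DNA binding, had a log2 ratio of 0.24, and Pparg of 0.85 (0.63 to 1.08).

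Of 9 other acyl-CoA thioesterases, 7 had the minimum and 3 were at least 2-fold higher in HFD, beside 10.8% of all genes: Acot11, from 1.58 to 6.34 CPM, Acot9, a mitochondrial enzyme, from 3.13 to 8.86 CPM (log2 1.499), and Acot6, from 0.689 to 1.44 CPM (1.07). Acot6 had 20 UMIs in NCD and a log2 interval of 0.37 to 1.84, which reaches below 2-fold. Acot11 had 46 UMIs in NCD (1.56 to 2.47). Acot12, which splits acetyl-CoA in the cytosol, was at 114 CPM in NCD and 78.0 CPM in HFD (-0.55), and Acot13 at 102 and 134 CPM (0.39). Acot10 had 0 UMIs in both sections, which allows up to 0.103 CPM in NCD and 0.0416 CPM in HFD. Of 11 relatives of the other genes, 9 had the minimum and 3 were at least 2-fold higher in HFD, again beside 10.8% of all genes: Creb3l1 (0.689 to 3.48 CPM), Creb3l2 (5.06 to 13.3 CPM), both membrane-bound transcription factors like Creb3l3, and Fgfr1 (2.07 to 4.78 CPM), a receptor of Fgf21. Fgfr1 had 60 UMIs in NCD and a log2 interval of 0.81 to 1.63, which also reaches below 2-fold. Creb3l1 had 20 UMIs in NCD (1.68 to 3.07). Klb, the co-receptor that Fgf21 needs, was at 11.9 and 10.4 CPM (log2 -0.20, -0.39 to -0.02), Vnn3 had a log2 ratio of 0.27, and Pdk2 of 0.50.

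Cell type markers differed between the sections too. Their summed log2 ratios of HFD to NCD were 0.15 for the 6 hepatocyte markers (4 of 6 higher), 1.56 for 4 stellate cell markers (4 of 4 higher), 0.97 for 5 bile duct markers (5 of 5), 0.61 for 5 endothelial markers (5 of 5) and 0.40 for 4 macrophage markers (2 of 4). From the pericentral to the periportal class, the bile duct sum was 369, 337 and 356 CPM in NCD and 591, 697 and 770 CPM in HFD. In NCD it was thus not higher at the portal side, where bile ducts lie. T cell markers had -0.50 (0 of 3 higher), B cell markers -1.67 (1 of 5) and red blood cell markers -2.42 (0 of 4). The 4 adipocyte markers were near 0, at 0.138 CPM in NCD (2 of 4 at 0) and 0.153 CPM in HFD (1 of 4 at 0). The part of other cell types in the ratios of the 10 genes, and of listed genes such as Cd36 and Pparg, was not tested.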

How the data were processed

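ST was measured in 1 NCD and 1 HFD liver section of 10 µm. The deposited files hold UMI counts without normalization, for all spots and for those over tissue, which the authors made with Space Ranger 1.3.1 on mm10, as the submitters' processing notes name it. Counts over shared spots differed in 0 UMIs between both tables. Counts were pooled over spots and divided by their total (CPM). Intervals are exact Poisson for levels, exact conditional binomial for ratios and Clopper-Pearson for shares, at 95%, and cover counting error only. The score for position was log2((pericentral + 0.5)/(periportal + 0.5)) landmark UMIs. A count of 0 allows up to 3 counts. Genes needed 100 UMIs, and a gene was counted past 2-fold between sections or 1.5-fold between positions. Of 32285 gene IDs, 32158 are in GENCODE M21. Promoters are from RefSeq (GRCm38.p6), searched over 250 bases on both strands.

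The genes named are the 10 genes, genes of the pathway lists past 2-fold or with high counts, and the 3 genes most like each, some of which are not reported here. The members and lists were chosen with earlier results of these data known. Alternatives changed spot weight, depth (1000 or 3000 UMIs, seed 1), the spots (5000 to 20000 UMIs), the total, the gene minimum, the off-tissue signal, the score and the classes. The sum of paralogs and the pool of spots with at least 1000 UMIs were chosen after seeing the data. Methods were tested on simulated data. Calculations ran in Python 3.11.15 with pandas 2.3.3, scipy 1.17.1 and numpy 2.4.6, and plots in matplotlib 3.10.9. Images and spot positions were not used here.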

Additional observations from a re-analysis of the deposited data

Results flagged for a closer look

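The ratio of HFD to NCD of Acot3 had opposite signs at the ends of the lobule, with log2 0.56 in pericentral and -0.46 in periportal spots, both with intervals that exclude 0. The difference was not tested, since each diet has 1 section. Over 6 alternatives of the score, the depth and the total, the pericentral value ran from 0.39 to 0.56 and the periportal one from -0.62 to -0.41. None of these subtracted the off-tissue signal. In NCD, Acot3 was at 46.9 CPM off tissue, no lower than in any NCD class, and its part in the opposite signs was not tested.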

How the results depend on the processing

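Of 432 alternative values, 331 stayed within the counting interval of the reported value or within 1.5 times the reported count. No paired analysis was possible, since the sections came from different mice and each diet has 1 section. With hepatocyte marker UMIs as the denominator, which moved the median log2 ratio of all genes from 0.24 to 0.09, 1 of the 10 genes (Acot1) was at least 2-fold lower in HFD instead of 0, 1 instead of 3 PPARα targets was 2-fold higher, and the median of these targets was -0.030. With the off-tissue profile subtracted, Fgf21 was left with 0 UMIs in NCD and so has no ratio (it was counted as higher), 1 of the 10 (Acot1) was 2-fold lower, Acot3 was at 0.86, the median of the 10 was 0.79 and that of the PPARα targets 0.26. With spots drawn down to 1000 UMIs, 1 of the 10 (Pdk4, -1.22) was at least 1.5-fold periportal in HFD, and 4 instead of 6 pericentral, and the median ratio of pericentral to periportal in HFD was 0.42. The sum of Acot2 and Acot1, which is mostly Acot1, had -0.48, the sign of Acot1. The NCD ratio of pericentral to periportal of Pdk4 turned to -0.998 at 1000 UMIs. Of 92 alternative HFD to NCD ratios of the 10 genes, 5 had the other sign (the paralog sum set against Acot2, Acot3 once, Pdk4 in 3), and of 120 position ratios 5 did (Pdk4 in 4, Fgf21 once). The cause was not tested.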
